A study of Mus musculus with 13 samples.

Results

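The aminoacyl-tRNA synthetases are the enzymes that load each transfer RNA with its amino acid. They were followed here in bulk RNA of CD4+ T cells from BDC2.5 mice, a NOD line whose T cells carry a transgenic receptor for a beta-cell antigen. The set was taken by gene name and not by measured values. It holds 39 of the 55774 gene entries of the count table, with 20 cytosolic synthetases, 16 mitochondrial synthetases and 3 scaffold proteins. All 39 passed the filter on low counts, which 15781 entries passed in all. The lowest count of a member in any library was 2.

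All libraries were made from primary naive splenic CD4+ T cells of female NOD/ShiLtJ mice carrying the BDC2.5 T cell receptor transgene (Tg(TcraBDC2.5,TcrbBDC2.5)1Doi). In the STZ-macrophage co-culture (n = 5) these cells spent 96 hours with islet macrophages of NOD donors that had received 1 low dose of streptozotocin (STZ), a toxin that kills beta cells. In the control-macrophage co-culture (n = 4) the islet macrophages came from donors injected with buffer. Donors of both kinds were injected at 4 weeks of age, and their islets were taken 10 days later, at 5.5 weeks. The third group was T cells alone (n = 4), which the labels call untreated without saying whether they were cultured for the same time. Any comparison with them may therefore include time in culture as well as the macrophages. The macrophages were enriched with magnetic beads, and the T cells were recovered by sorting on viability, CD45, Thy1.2 and CD4. The labels call the replicates biological and do not say how many animals stand behind each. They also give a batch, named day 1 or day 2. Day 2 held STZ-macrophage replicates 2, 3 and 4 and control-macrophage replicate 3, and day 1 held the other 9 libraries, all cells alone included.

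A synthetase recognises both its amino acid and the matching transfer RNAs and joins them at the expense of ATP, so the family sets the supply of charged transfer RNA for protein synthesis. Most amino acids are served by separate enzymes in the cytosol and in mitochondria, each encoded in the nucleus. Kars and Gars encode the lysine and glycine enzymes of both compartments. Mitochondria lack a glutaminyl-tRNA synthetase and make this product by amidation instead. In the cytosol, Eprs, Iars, Lars, Mars1, Qars, Rars, Kars and Dars are bound together with the scaffold proteins Aimp1, Aimp2 and Eef1e1 in the multisynthetase complex. Resting T cells raise protein synthesis when they are activated. Genes of several cytosolic synthetases are known targets of ATF4, the transcription factor of the amino acid response.

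Library totals ran from 17312119 to 61267763 estimated counts, and the median count of a member from 1328 to 7763 per library. Levels are given as CPM, counts scaled to a common library size by the library total and its TMM factor. The 11 CD4+ T cell markers summed to 10578 to 14631 CPM in the STZ-macrophage co-culture, 14782 to 26344 CPM in the control-macrophage co-culture and 9235 to 17801 CPM in cells alone. All 12 macrophage markers had a count in every group, and they summed to 20.9 to 111 CPM with STZ macrophages, 6.92 to 55.7 CPM with control macrophages and 2.82 to 13.2 CPM in cells alone. Transcripts of 7 islet endocrine markers reached 153 CPM in STZ-macrophage replicate 2, 114 CPM in replicate 4 and at most 3.24 CPM in any other library, with Ppy at 0 throughout. B cell markers summed to 0.471 to 1.39 CPM with STZ macrophages, 0.617 to 1.71 CPM with control macrophages and 5.64 CPM or more in cells alone. CD8 T and NK cell markers summed to 174 to 430 CPM with STZ macrophages, 118 to 660 CPM with control macrophages and 17.7 to 41.9 CPM in cells alone. Nkg7 alone made up 85.5 to 630 CPM of this in the co-cultures, Cd8a was at most 9.29 CPM, and Ncr1 had a count in 1 library. Cd8b1 did not follow Nkg7, at 10.4 to 23.4 CPM in the co-cultures and 15.7 to 36.4 CPM in cells alone. Klrb1c was at most 0.324 CPM in the co-cultures and at most 3.11 CPM in cells alone. Acinar and stromal markers summed to 68.4 to 87.7 CPM with STZ macrophages, 180 to 279 CPM with control macrophages and 95.9 to 290 CPM in cells alone, nearly all of it Pecam1, with Cpa1 and Cdh5 at 0 throughout. The part of these other cells in the results below was not tested. In bulk RNA, fewer cells of a type and less RNA per cell cannot be told apart.

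Across genes, levels were compared as CPM per kilobase of the reference transcript. In the STZ-macrophage co-culture the highest cytosolic members were Dars (aspartate) at 179 ± 32.5 and Sars (serine) at 178 ± 31.5 CPM per kilobase (SD, n = 5). Nars (asparagine) at 166 ± 50.5 and Wars (tryptophan) at 163 ± 46.3 followed, and these 4 did not differ beyond their spread. In the control-macrophage co-culture the same genes stood at 181 ± 55.1, 171 ± 30.0, 174 ± 68.9 and 174 ± 43.0 CPM per kilobase (n = 4), and in cells alone at 87.0 ± 22.8, 118 ± 26.9, 106 ± 38.6 and 58.8 ± 14.3. The lowest cytosolic members were Gars, at 9.82 ± 2.82 with STZ macrophages, 6.92 ± 2.46 with control macrophages and 9.90 ± 13.5 CPM per kilobase in cells alone, and Vars (valine), at 6.94 ± 10.7 with STZ macrophages, 0.509 ± 0.286 with control macrophages and 1.81 ± 3.30 in cells alone.

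Mitochondrial members were mostly far lower. Lars2 (leucine) stood apart at 102 ± 28.6 CPM per kilobase with STZ macrophages, 182 ± 79.0 with control macrophages and 169 ± 97.7 in cells alone. Rars2 (arginine) and Tars2 (threonine) came next, at 42.5 ± 12.9 and 47.5 ± 12.2 with STZ macrophages, 50.2 ± 19.7 and 45.5 ± 4.40 with control macrophages and 25.5 ± 7.37 and 24.8 ± 4.99 in cells alone. The other 13 lay between 0.199 and 14.2 CPM per kilobase in every group mean. Without Lars2, the 15 remaining mitochondrial members summed to 353 ± 26.0 CPM in the STZ-macrophage co-culture, 328 ± 19.5 CPM in the control-macrophage co-culture and 295 ± 49.9 CPM in cells alone. Cytosolic members summed to 4858 ± 1119 CPM with STZ macrophages, 4578 ± 974 CPM with control macrophages and 2425 ± 414 CPM in cells alone, so that the lowest co-culture library (3609 CPM) lay above the highest library of cells alone (2673 CPM).

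**Figure D1:**
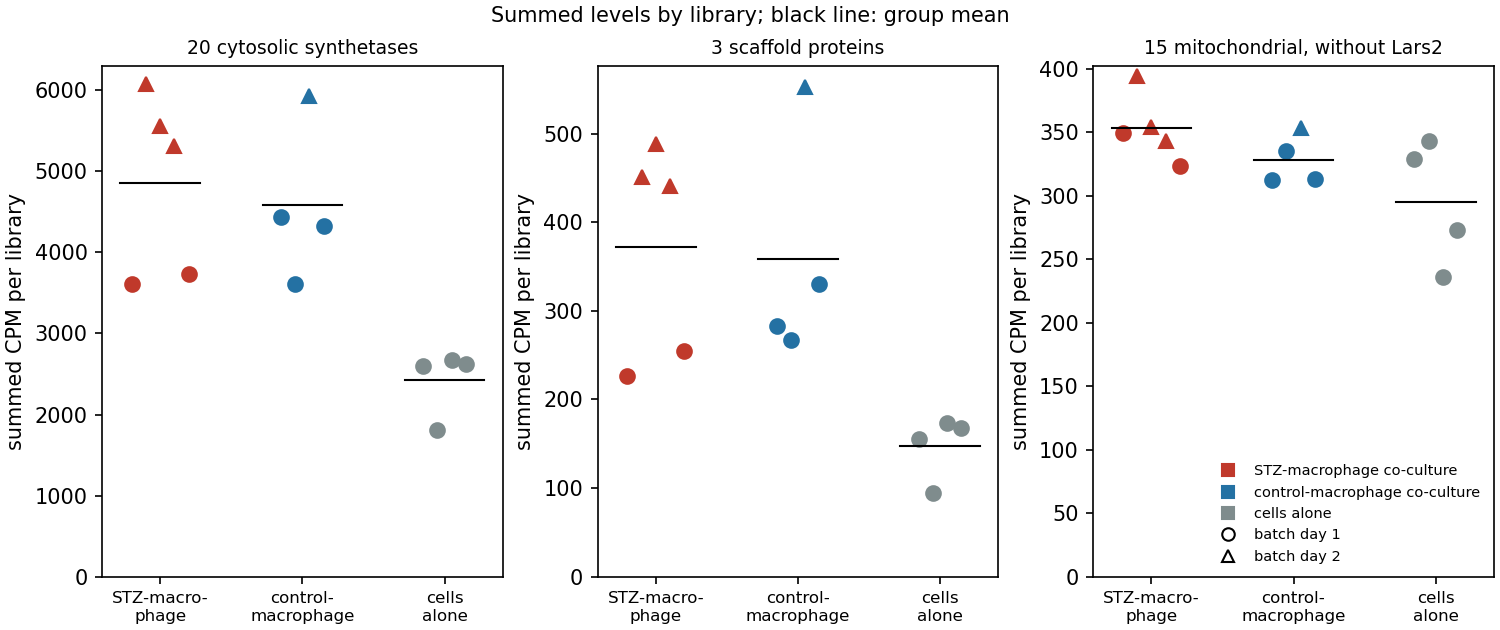
Summed CPM of the 20 cytosolic synthetases, the 3 scaffold proteins and the 15 mitochondrial synthetases other than Lars2 in each library (circles, batch day 1; triangles, batch day 2; lines, group means). All 9 co-cultures lie above all 4 libraries of cells alone for cytosolic enzymes (3609 to 6080 against 1806 to 2673 CPM) and scaffolds (226 to 553 against 94.5 to 174 CPM), and the co-cultures of day 2 lie above those of day 1 in both panels.

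The T cells of both co-cultures were first set against cells alone. Many cytosolic synthetase mRNAs rose in either co-culture, and no cytosolic member fell. With STZ macrophages 11 of 39 members rose and 1 fell, where 20.8% of all genes tested rose and 22.3% fell (43.1% called in all; edgeR quasi-likelihood test with batch as a term, adjusted p under 0.05). With control macrophages 15 members rose and 2 fell, where 23.1% of all genes rose and 22.0% fell (45.0% in all). In this fit the share of members that rose was above that of all genes in both, and the share that fell was below it. With STZ macrophages the higher share of rising members was not kept in every fit. With the replicate number as a block 4 members rose, where 3476 genes were called in either direction. The share of all genes that rose under the block was not taken.

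Calls were counted by class, and differences between classes were not tested. With STZ macrophages 9 of 20 cytosolic members rose (Aars, Cars, Dars, Eprs, Kars, Mars1, Tars, Wars and Yars), as did 1 of 16 mitochondrial members (Tars2) and 1 of 3 scaffold proteins (Aimp2). The median log2 fold change was 0.59 for cytosolic, 0.13 for mitochondrial and 0.42 for scaffold members, against -0.05 for all genes. With control macrophages 10 cytosolic members rose (Aars, Dars, Eprs, Farsb, Hars, Kars, Qars, Rars, Wars and Yars), with 2 mitochondrial members (Rars2 and Tars2) and all 3 scaffold proteins. The medians there were 0.76 for cytosolic, -0.65 for mitochondrial and 1.05 for scaffold members, against -0.13 for all genes. Both comparisons use the same 4 libraries of cells alone. In the log2 table that the authors adjusted, 5 of the 12 calls with STZ macrophages were kept (Aars, Cars, Eprs, Mars1, Tars, Lars2 and Tars2 were lost), and 14 of the 17 with control macrophages (Aars, Eprs and Tars2 were lost). That table also gained 13 member calls with STZ macrophages and 14 with control macrophages. Its calls of lower members were 2 with STZ macrophages and 9 with control macrophages. By ranges, 13 members lay wholly above the cells alone with STZ macrophages and 0 below, where 21.7% of all genes lay above and 17.9% below. With control macrophages 15 lay above and 2 below, where 22.2% and 17.7% of all genes did.

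All cells alone were of batch day 1, so the comparisons were repeated within that day. Within day 1, 8 members rose and 1 fell with STZ macrophages (n = 2 against 4), where 19.5% of all genes rose and 19.3% fell (38.8% in all). The share of members that rose there was near that of all genes. With control macrophages 16 rose and 4 fell within day 1 (n = 3 against 4), where 23.1% rose and 21.8% fell (44.9% in all). The cytosolic medians within day 1 were 0.56 with STZ macrophages and 0.83 with control macrophages on the log2 scale.

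**Figure D2:**
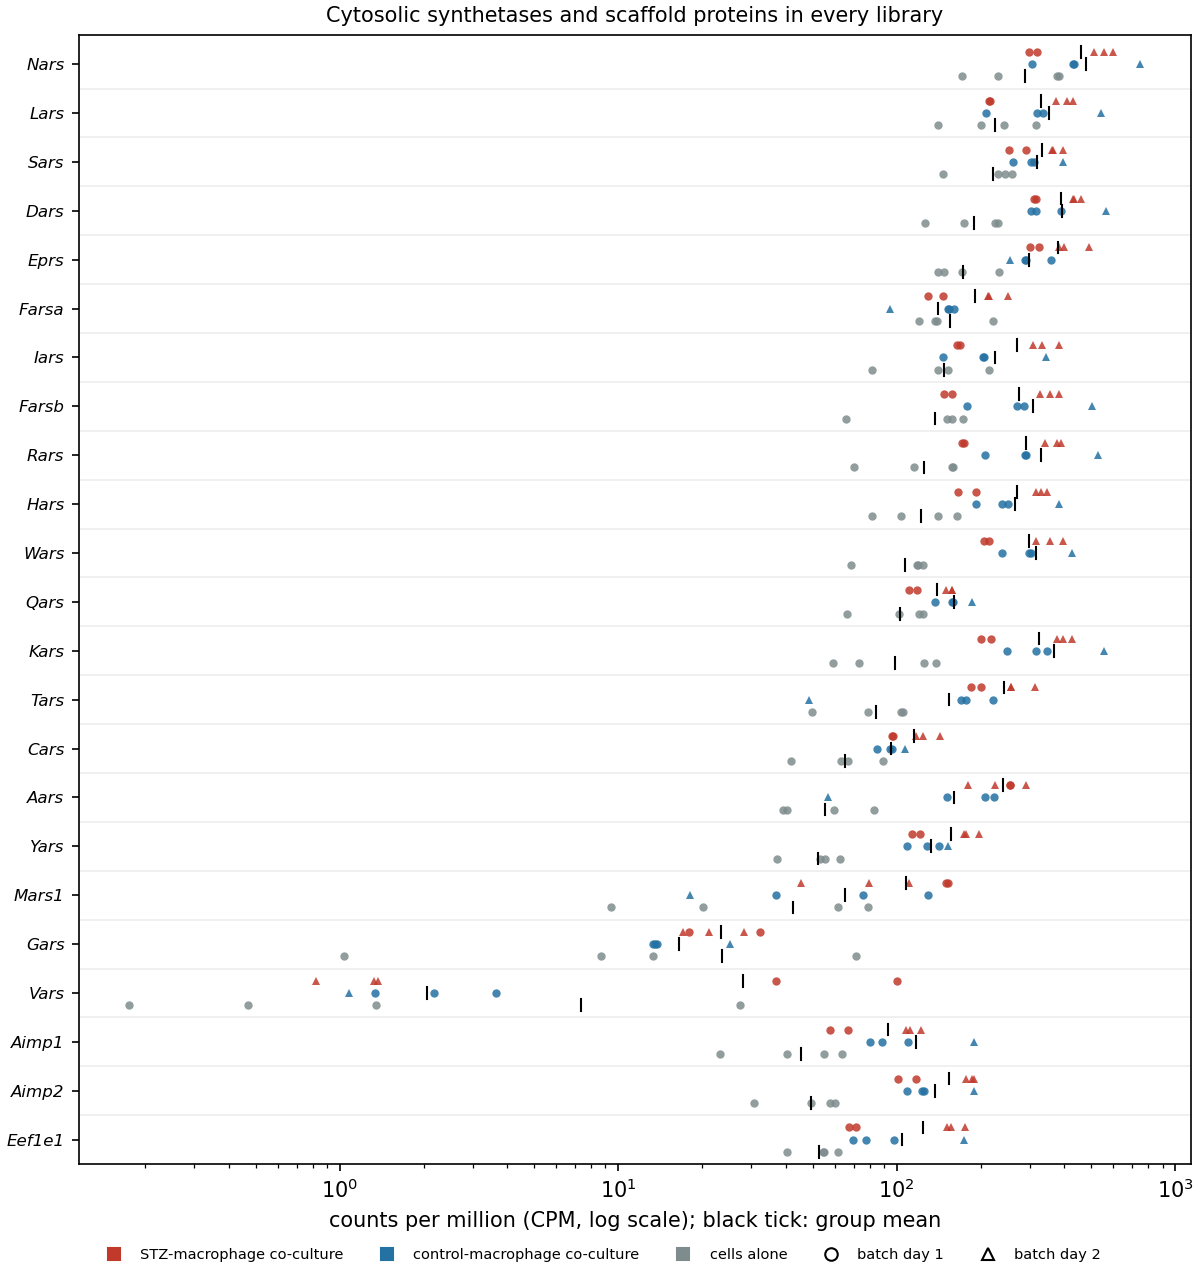
CPM (log axis) of the 20 cytosolic synthetases and 3 scaffold proteins, cytosolic members ordered by their mean in cells alone, with every library as a point (circles, batch day 1; triangles, batch day 2) and black ticks at group means. For Kars, Wars, Yars and Aimp2 every co-culture point lies right of every cells-alone point, whereas Gars and Vars spread over more than a decade among the cells alone (1.04 to 71.2 and 0.176 to 27.3 CPM).

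Wars, the tryptophan enzyme, is induced by interferon gamma in human cells. STZ-macrophage replicates 1 to 5 held 205, 396, 354, 317 and 215 CPM of it, control-macrophage replicates 1 to 4 held 304, 238, 425 and 298 CPM, and cells-alone replicates 1 to 4 held 124, 68.4, 119 and 118 CPM. Every co-culture library was above every library of cells alone. Wars rose with STZ macrophages by 1.01 on the log2 scale (SE 0.21, adjusted p = 0.00226) and with control macrophages by 1.36 (SE 0.20, adjusted p = 1.41e-04).

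Kars, the lysine enzyme, was at 201, 396, 427, 377 and 218 CPM with STZ macrophages, at 315, 249, 555 and 345 CPM with control macrophages and at 73.1, 59.0, 138 and 125 CPM in cells alone. The co-cultures again did not overlap with the cells alone. Its log2 fold change was 1.10 with STZ macrophages (SE 0.27, adjusted p = 0.00582) and 1.60 with control macrophages (SE 0.25, adjusted p = 2.69e-04). Yars, the tyrosine enzyme, measured 113, 198, 177, 175 and 121 CPM with STZ macrophages, 142, 109, 153 and 128 CPM with control macrophages and 62.8, 53.2, 55.3 and 37.1 CPM in cells alone. No co-culture value reached down to the cells alone, and Yars rose by 1.25 (SE 0.21, adjusted p = 3.61e-04) with STZ macrophages and by 1.22 (SE 0.19, adjusted p = 2.04e-04) with control macrophages.

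Aars, the alanine enzyme, had the largest called fold change of the family. It was at 254, 291, 180, 226 and 255 CPM with STZ macrophages, at 224, 207, 56.6 and 152 CPM with control macrophages and at 82.6, 59.7, 40.3 and 39.2 CPM in cells alone. All STZ-macrophage libraries were above the cells alone, while control-macrophage replicate 3, of day 2, lay among them. The log2 fold change was 2.57 with STZ macrophages (SE 0.39, adjusted p = 2.31e-04) and 1.61 with control macrophages (SE 0.34, adjusted p = 0.00205). Within day 1 it was 2.20 (SE 0.30) with STZ macrophages and 1.81 (SE 0.28) with control macrophages. In the table of log2 values that the authors adjusted, the control-macrophage value had the opposite sign (-0.50 by limma) and Aars was called in neither comparison.

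Eprs is a single protein with the glutamate and proline activities, and in human cells it also takes part in translational silencing after interferon gamma. Its levels were 301, 490, 381, 398 and 323 CPM with STZ macrophages, 359, 289, 254 and 291 CPM with control macrophages and 233, 172, 141 and 148 CPM in cells alone. The groups with macrophages stayed above the cells alone without overlap. Eprs rose by 1.02 (SE 0.24, adjusted p = 0.00374) with STZ macrophages and by 0.75 (SE 0.21, adjusted p = 0.0109) with control macrophages.

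Dars was at 310, 432, 458, 428 and 315 CPM with STZ macrophages, 303, 316, 564 and 388 CPM with control macrophages and 174, 126, 231 and 226 CPM in cells alone. It did not overlap between either co-culture and the cells alone, with log2 fold changes of 0.67 with STZ macrophages (SE 0.21, adjusted p = 0.0213) and 0.87 with control macrophages (SE 0.20, adjusted p = 0.00327). Without STZ-macrophage replicate 1 or 5 the adjusted p of the first was 0.0722 or 0.0834. Tars, the threonine enzyme, was at 184, 313, 257, 257 and 201 CPM with STZ macrophages, 221, 178, 48.6 and 170 CPM with control macrophages and 104, 105, 78.6 and 49.7 CPM in cells alone. As for Aars, control-macrophage replicate 3 was the low library. Tars rose with STZ macrophages (log2 fold change 1.73, SE 0.47, adjusted p = 0.0104) and was not called with control macrophages (0.90, SE 0.38, adjusted p = 0.0740). Without control-macrophage replicate 3 the control-macrophage value was 1.24 with an adjusted p of 0.00199.

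Rars, the arginine enzyme, stood at 171, 377, 390, 340 and 175 CPM with STZ macrophages, at 290, 207, 530 and 288 CPM with control macrophages and at 115, 70.2, 158 and 159 CPM in cells alone. All co-culture libraries were above the cells alone. It rose with control macrophages (log2 fold change 1.05, SE 0.24, adjusted p = 0.00337), and its value with STZ macrophages was 0.48 (SE 0.26, adjusted p = 0.154). Hars, the histidine enzyme, was at 166, 345, 329, 316 and 192 CPM with STZ macrophages, 251, 192, 383 and 239 CPM with control macrophages and 104, 81.2, 164 and 141 CPM in cells alone. It was called with control macrophages (0.87, SE 0.21, adjusted p = 0.00473) but not with STZ macrophages (0.58, SE 0.23, adjusted p = 0.0581). DESeq2, RLE factors, no filter, no day term, a GC offset and 4 leave-one-out fits did call Hars with STZ macrophages. Rars was called there with no filter, no day term, a GC offset or in 2 leave-one-out fits. A call in 1 co-culture only does not show that the co-cultures differ, and the direct comparison below called neither gene.

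Farsb and Qars rose in the control-macrophage co-culture as well. Farsb, the beta subunit of the phenylalanine enzyme, was at 148, 356, 383, 328 and 158 CPM with STZ macrophages, 270, 179, 502 and 286 CPM with control macrophages and 152, 66.0, 173 and 158 CPM in cells alone. Its log2 fold change was 0.20 (SE 0.29, adjusted p = 0.608) with STZ macrophages and 0.81 (SE 0.27, adjusted p = 0.0258) with control macrophages, with an adjusted p of 0.0697 or 0.0733 without control-macrophage replicate 1 or 4. The alpha subunit Farsa did not follow it, with log2 fold changes of 0.16 with STZ macrophages (SE 0.32) and -0.17 with control macrophages (SE 0.27), neither called. Qars, the glutamine enzyme, had 111, 158, 158, 150 and 118 CPM with STZ macrophages, 159, 137, 187 and 158 CPM with control macrophages and 102, 66.4, 120 and 124 CPM in cells alone. Its rise with control macrophages was small (0.53, SE 0.19, adjusted p = 0.0388). The call was lost when 8 of the 13 libraries were left out in turn (adjusted p = 0.0522 to 0.0918) and with the replicate number as a block, which the control-macrophage and cells-alone libraries share. Of the 17 members called in that comparison, Qars was the only call lost under the block fitted on all libraries. With the block on these 2 groups alone, 13 calls were kept, and Qars, Cars2, Rars2 and Eef1e1 were lost.

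Mars1 and Gars varied widely within groups. Mars1, the methionine enzyme, was at 153, 111, 45.4, 79.8 and 150 CPM with STZ macrophages, 75.7, 129, 18.1 and 37.0 CPM with control macrophages and 79.0, 61.5, 20.1 and 9.45 CPM in cells alone. The 3 groups overlapped. Mars1 was called with STZ macrophages (log2 fold change 2.11, SE 0.69, adjusted p = 0.0260) but not without replicate 1 or 5 of that group (adjusted p = 0.0518 or 0.0542), nor with control macrophages (0.77, SE 0.60, adjusted p = 0.315). Gars was at 32.4, 17.1, 28.3, 21.1 and 18.0 CPM with STZ macrophages, 13.8, 13.3, 25.2 and 13.6 CPM with control macrophages and 1.04, 71.2, 8.68 and 13.3 CPM in cells alone. The cells alone spanned both co-cultures, and the log2 fold changes of -0.15 with STZ macrophages (SE 0.88) and -0.60 with control macrophages (SE 0.86) were not called. In the log2 table that the authors adjusted, Gars was called higher in both (4.90 and 4.27). The remaining cytosolic call was Cars, the cysteine enzyme, with STZ macrophages (0.61, SE 0.23, adjusted p = 0.0490). It was lost when any of 8 libraries was left out (adjusted p = 0.0563 to 0.107).

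Calls were found both inside and outside the multisynthetase complex. Of the 8 enzymes in the complex, 4 rose with STZ macrophages and 5 with control macrophages, and of the 12 outside it 5 rose in each. The summed level of the 8 was 2228 ± 535 CPM with STZ macrophages, 2186 ± 563 CPM with control macrophages and 1105 ± 221 CPM in cells alone. For the other 12 it was 2630 ± 586 CPM with STZ macrophages, 2392 ± 417 CPM with control macrophages and 1320 ± 200 CPM in cells alone. Whether these 2 sets differ was not tested.

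Of the scaffold proteins, Aimp2, a core scaffold that binds Kars, was at 101, 187, 190, 178 and 117 CPM with STZ macrophages, 125, 109, 190 and 123 CPM with control macrophages and 59.8, 30.8, 57.7 and 49.1 CPM in cells alone. No co-culture overlapped with the cells alone, and Aimp2 rose by 1.16 with STZ macrophages (SE 0.22, adjusted p = 9.26e-04) and by 1.25 with control macrophages (SE 0.20, adjusted p = 2.90e-04). Aimp1, which can also be released from cells as a cytokine precursor, was at 57.6, 108, 122, 112 and 66.8 CPM with STZ macrophages, against 88.3, 80.3, 189 and 110 CPM with control macrophages and 40.2, 23.2, 54.9 and 63.7 CPM in cells alone. The STZ-macrophage range touched that of the cells alone, and Aimp1 was called with control macrophages (1.05, SE 0.27, adjusted p = 0.00680) but not with STZ macrophages (0.41, SE 0.29, adjusted p = 0.265). With no day term or a GC offset Aimp1 was called with STZ macrophages too.

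Eef1e1, a scaffold protein that also binds an elongation factor complex, was at 67.4, 156, 176, 151 and 71.4 CPM with STZ macrophages, 69.6, 77.7, 174 and 97.7 CPM with control macrophages and 54.4, 40.5, 61.3 and 55.0 CPM in cells alone. All co-cultures were above the cells alone. It was called with control macrophages (0.61, SE 0.18, adjusted p = 0.0132) and not with STZ macrophages (0.42, SE 0.19, adjusted p = 0.0926). DESeq2, RLE factors, no filter, no day term, a GC offset and 4 leave-one-out fits did call Eef1e1 with STZ macrophages. Of the transcript of Aimp2, 41.2% (488 bases) is shared on the opposite strand with Eif2ak1, so in these unstranded libraries part of its reads could belong to that gene. Eif2ak1 itself averaged 42.8 ± 42.8 CPM with STZ macrophages, 14.2 ± 6.88 CPM with control macrophages and 41.5 ± 35.2 CPM in cells alone.

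The mitochondrial class showed no common direction. Tars2 was the only mitochondrial member that rose in both comparisons with cells alone, at 80.2, 148, 137, 116 and 88.6 CPM with STZ macrophages, 103, 99.2, 123 and 112 CPM with control macrophages and 70.3, 44.1, 56.1 and 67.6 CPM in cells alone. The groups with macrophages did not overlap with the cells alone. The log2 fold changes were 0.60 with STZ macrophages (SE 0.21, adjusted p = 0.0314) and 0.75 with control macrophages (SE 0.19, adjusted p = 0.00551), the first with an adjusted p of 0.0517 or 0.0875 without STZ-macrophage replicate 3 or 5. Rars2 had 53.4, 94.6, 104, 91.5 and 53.6 CPM with STZ macrophages, 67.4, 71.4, 147 and 89.4 CPM with control macrophages and 53.0, 29.2, 46.9 and 61.7 CPM in cells alone. It rose with control macrophages (0.69, SE 0.22, adjusted p = 0.0222, and 0.0574 without control-macrophage replicate 4), and stood at 0.14 (SE 0.24) with STZ macrophages.

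Iars2, the mitochondrial isoleucine enzyme, and Cars2, the mitochondrial cysteine enzyme, were the members that fell with control macrophages. Iars2 was at 27.9, 10.2, 9.93, 10.8 and 11.9 CPM with STZ macrophages, 9.16, 8.56, 9.35 and 8.47 CPM with control macrophages and 25.7, 61.3, 13.4 and 24.5 CPM in cells alone. Control-macrophage libraries were below all cells alone, and STZ-macrophage replicate 1 was within their range. The log2 fold change was -0.89 (SE 0.47, adjusted p = 0.146) with STZ macrophages and -1.65 (SE 0.47, adjusted p = 0.0118) with control macrophages. Iars2 shares 37.2% of its transcript (2034 bases) with Rab3gap2 on the opposite strand. Cars2 was at 8.04, 7.39, 5.13, 7.27 and 5.79 CPM with STZ macrophages, against 5.30, 6.21, 3.55 and 5.08 CPM with control macrophages and 7.83, 26.4, 6.91 and 15.2 CPM in cells alone, and it fell with control macrophages by 1.43 on the log2 scale (SE 0.42, adjusted p = 0.0155, and 0.0549 without control-macrophage replicate 4).

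Lars2, the mitochondrial leucine enzyme, was the only member that fell with STZ macrophages. It was at 255, 430, 492, 502 and 305 CPM with STZ macrophages, at 481, 513, 1148 and 694 CPM with control macrophages and at 449, 289, 1157 and 733 CPM in cells alone. The STZ-macrophage libraries were in the lower part of a range that all groups shared. Its log2 fold change was -1.29 (SE 0.38, adjusted p = 0.0147) with STZ macrophages and -0.18 (SE 0.34, adjusted p = 0.689) with control macrophages. The STZ-macrophage call was lost without cells-alone replicate 3 (-0.65, adjusted p = 0.107), control-macrophage replicate 3 (-1.04, adjusted p = 0.0899) or STZ-macrophage replicate 1 (-1.25, adjusted p = 0.0506). It was also lost with no filter, no day term, the compared groups alone, the replicate block or STZ-macrophage replicates 2 and 4 left out, and in the table the authors adjusted the sign turned (0.14). Wars2, the mitochondrial counterpart of Wars, had 5.34, 10.3, 7.10, 6.69 and 7.60 CPM with STZ macrophages, 9.09, 8.86, 7.53 and 8.77 CPM with control macrophages and 9.83, 7.24, 13.9 and 22.6 CPM in cells alone. Its log2 fold changes of -0.92 with STZ macrophages (SE 0.42, adjusted p = 0.0902) and -0.67 with control macrophages (SE 0.36, adjusted p = 0.151) were not called, whereas Wars rose in both.

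**Figure D3:**
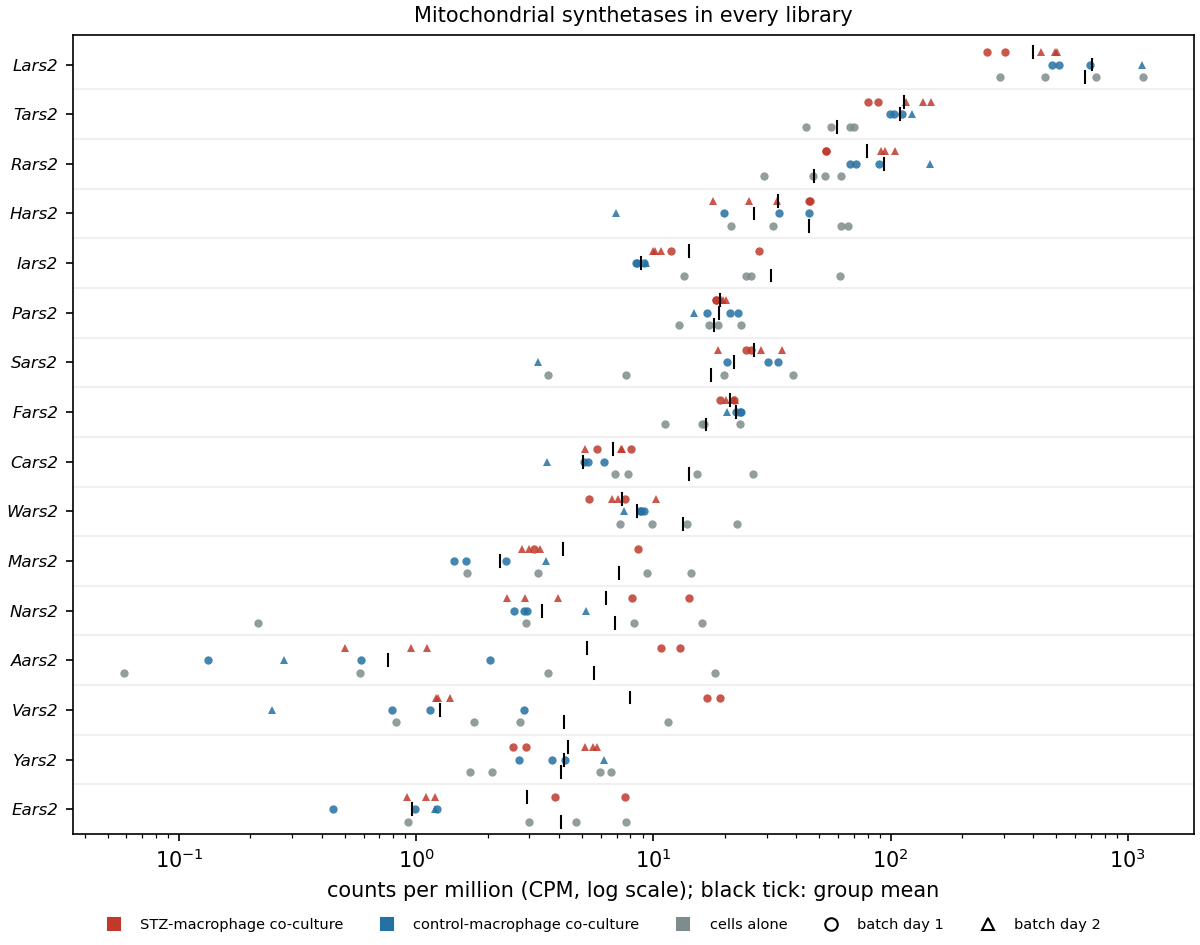
CPM (log axis) of the 16 mitochondrial synthetases, ordered by their mean in cells alone, with every library as a point (circles, batch day 1; triangles, batch day 2) and black ticks at group means. Lars2 reaches 255 to 1157 CPM, above every other mitochondrial member, and STZ-macrophage replicates 1 and 5 of day 1 lie apart from replicates 2 to 4 for Aars2 and Vars2.

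The second question was whether macrophages of STZ-treated donors and of buffer-treated donors left T cells with different synthetase levels. No member was called (0 of 39), where 0.323% of all genes tested were, 0.152% higher and 0.171% lower. By unadjusted p under 0.05, 9 members (5 mitochondrial, 3 cytosolic and 1 scaffold) passed, where 22.8% of all genes did. Fitted on the libraries of both co-cultures alone, 4 members were called higher (Vars, Aars2, Iars2 and Vars2) and 2 lower (Lars2 and Aimp1). In all, 2698 genes were called in that fit. Its low-count filter was rerun on these libraries, and the share of all genes called in each direction was not taken. DESeq2 called 1 member, Vars2, where it called 5.10% of the genes it gave an adjusted p, 3.38% higher and 1.72% lower. The median log2 fold change was -0.10 for cytosolic, 0.65 for mitochondrial and -0.19 for scaffold members, against -0.13 for all genes.

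Vars2, the mitochondrial valine enzyme, had the smallest p. It was at 19.0, 1.24, 1.21, 1.39 and 16.9 CPM in STZ-macrophage replicates 1 to 5, against 1.14, 2.86, 0.247 and 0.791 CPM in control-macrophage replicates 1 to 4. The high libraries were the STZ-macrophage replicates of day 1, and the other 3 lay within the control-macrophage range. Its log2 fold change was 3.10 (SE 0.75, adjusted p = 0.111), with 3.48 (SE 0.93) within day 1 and 2.36 (SE 1.41) within day 2. Without cells-alone replicate 2, which enters through the shared spread, the adjusted p was 0.0122. In cells alone Vars2 was at 2.73, 11.5, 1.75 and 0.819 CPM, and its level with STZ macrophages was not called against them (1.89, SE 0.75, adjusted p = 0.0593). Without cells-alone replicate 2 that value was 3.35 (adjusted p = 6.99e-04), and DESeq2, RLE factors, no filter and a GC offset also called it.

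Vars and Aars2 had the same high libraries. Vars, the cytosolic valine enzyme, was at 100, 1.37, 0.825, 1.33 and 36.8 CPM with STZ macrophages, against 1.34, 3.65, 1.08 and 2.18 CPM with control macrophages and 1.35, 27.3, 0.470 and 0.176 CPM in cells alone. Aars2, the mitochondrial alanine enzyme, was at 12.9, 0.952, 0.501, 1.11 and 10.8 CPM with STZ macrophages, against 0.586, 2.05, 0.278 and 0.132 CPM with control macrophages and 3.59, 18.2, 0.582 and 0.0585 CPM in cells alone. In both genes STZ-macrophage replicates 1 and 5 were high and replicates 2 to 4 were not, and cells-alone replicate 2 was the highest library of its group. The STZ-macrophage against control-macrophage log2 fold changes were 2.92 for Vars (SE 1.45, adjusted p = 0.243) and 2.93 for Aars2 (SE 1.25, adjusted p = 0.201).

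Aars and Tars were not called, and both were low in control-macrophage replicate 3. Between the co-cultures Aars differed by 0.96 on the log2 scale (SE 0.37, adjusted p = 0.178). Within day 1 it was 0.39 (SE 0.33), and within day 2, where control-macrophage replicate 3 was the only control, it was 2.04 (SE 0.48). That lone library is assumed to vary like the other groups, so the day 2 errors and the tests between days rest on spread measured elsewhere. Tars, with 0.83 (SE 0.46, adjusted p = 0.281) over both days, was at 0.02 (SE 0.29) within day 1 and 2.51 (SE 0.43) within day 2. The tested difference between days (day 2 minus day 1) was 1.65 for Aars and 2.48 for Tars on the log2 scale. Farsa (1.43), Sars2 (3.22) and Ears2 (-2.85) were the others among the 5 members of smallest p in this test. No member passed this test (0 of 39, against 0.00634% of all genes).

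The log2 fold change of Lars2 between the co-cultures was -1.11 (SE 0.33, adjusted p = 0.147), and its groups overlapped over both days. Within day 1 it was -1.01 (SE 0.46), at 255 and 305 CPM with STZ macrophages against 481, 513 and 694 CPM. Within day 2 it was -1.27, at 430, 492 and 502 CPM against 1148 CPM in the lone control-macrophage library. Rars2 (-0.55, SE 0.21, adjusted p = 0.179), Aimp1 (-0.64, SE 0.26, adjusted p = 0.189), Rars (-0.57, SE 0.23, adjusted p = 0.190) and Farsb (-0.61, SE 0.26, adjusted p = 0.204) also had unadjusted p under 0.05. Rars2, Aimp1, Rars and Farsb each had their highest level in control-macrophage replicate 3, which is of day 2. Within day 1 their log2 fold changes were -0.51 (SE 0.29), -0.58 (SE 0.35), -0.60 (SE 0.31) and -0.68 (SE 0.35), in that order. The log2 fold changes of Kars (-0.51, SE 0.25), Wars (-0.36, SE 0.19), Eprs (0.27, SE 0.22), Mars1 (1.34, SE 0.65), Gars (0.46, SE 0.79), Wars2 (-0.25, SE 0.37), Aimp2 (-0.09, SE 0.20) and Eef1e1 (-0.19, SE 0.17) had adjusted p of 0.235 to 0.779. The signs of Aimp2 and Eef1e1 turned when counts were scaled by library totals alone (0.11 and 0.02). Ears2, the mitochondrial glutamate enzyme, was the remaining member with an unadjusted p under 0.05 (1.51, SE 0.68, adjusted p = 0.215). Iars2 was the only member whose co-cultures did not overlap, all STZ-macrophage libraries being higher (9.93 to 27.9 against 8.47 to 9.35 CPM), where 2.46% of all genes were apart in that direction. It was not called (0.77, SE 0.42, adjusted p = 0.278).

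**Figure D4:**
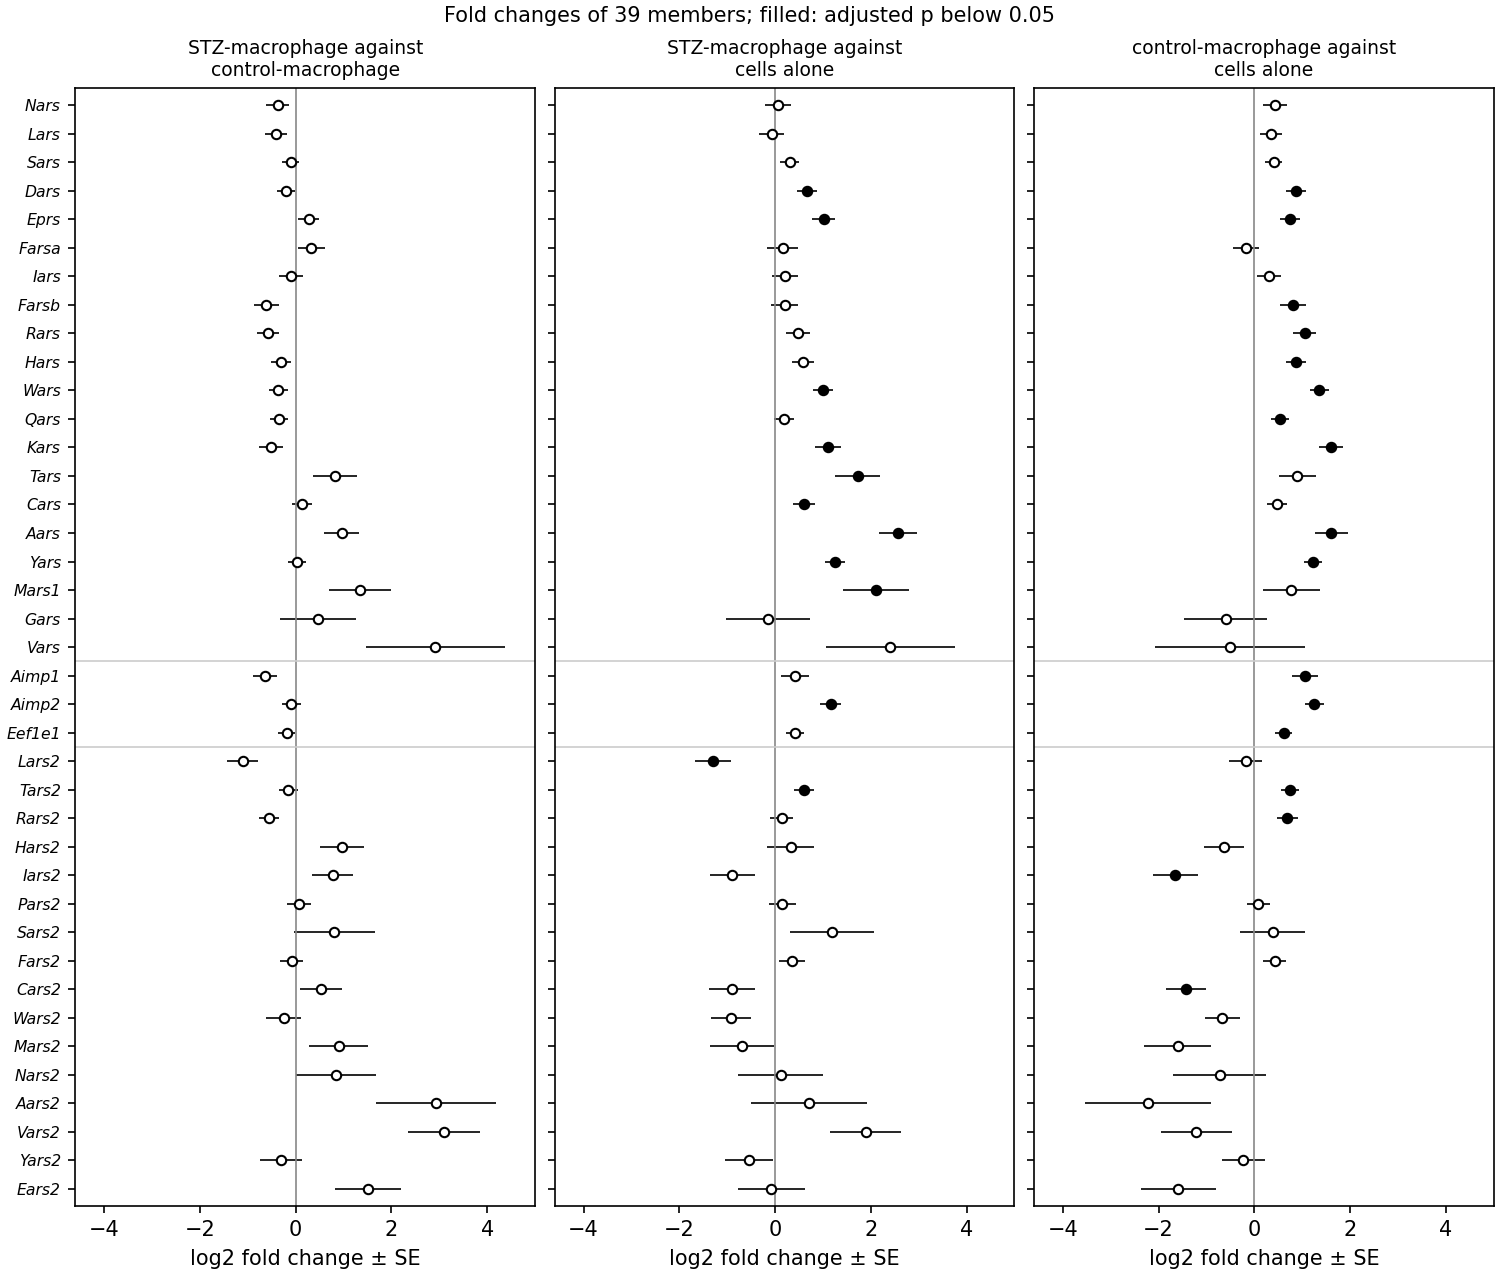
Log2 fold changes with standard errors of the 39 members in the 3 comparisons, cytosolic members above, scaffold proteins in the middle and mitochondrial members below, with filled points at an adjusted p under 0.05. No point is filled in the left panel, 12 are filled in the middle panel and 17 in the right panel, and the widest error bars belong to Vars and Aars2.

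Cytosolic levels of the co-cultures also separated by batch. Summed cytosolic levels were 5308 to 6080 CPM in the 4 co-cultures of day 2 and 3609 to 4434 CPM in the 5 of day 1. For 17 members (12 cytosolic, 3 mitochondrial and 2 scaffold) every co-culture of day 2 was higher than every co-culture of day 1, where 7.72% of all genes were apart in this direction, and no member was apart in the other (2.66% of all genes). Eef1e1 was at 151 to 176 CPM on day 2 and 67.4 to 97.7 CPM on day 1, and Rars at 340 to 530 CPM against 171 to 290 CPM. Mars1, Aars, Vars, Vars2 and Aars2 had negative day terms (-1.38, -0.70, -3.91, -3.43 and -3.06 on the log2 scale), of which that of Vars2 was called.

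The test of the day term, added after the data were seen, called 5 members higher on day 2 (Farsb, Hars, Rars, Rars2 and Eef1e1; 2.10% of all genes) and 1 lower (Vars2; 1.05%), with 3.15% of all genes called. These calls did not last. With 1 co-culture library left out at a time, 0 or 1 member was higher and 0 or 1 lower. The cytosolic median of the day term stayed between 0.31 and 0.52 in those fits, against -0.05 to 0.14 for all genes. Day 2 held 3 STZ-macrophage libraries and 1 control-macrophage library, and the labels do not say what was done on each day. Macrophage markers summed to 28.6 to 111 CPM in the day 2 co-cultures and 6.92 to 23.8 CPM in those of day 1, a difference whose part in these levels was not tested.

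A group of members varied more between libraries of a group than the rest. The pooled within-group SD of log2 CPM was above 1 in 8 members: Vars (2.62), Aars2 (2.34), Vars2 (1.73), Nars2 (1.59), Gars (1.40), Sars2 (1.20), Ears2 (1.14) and Mars1 (1.13). Of these, Vars, Aars2, Vars2, Sars2 and Ears2 are the members whose transcripts have a GC content of at least 58%, the upper decile of 22527 coding genes (median 49.3%). Their median SD was 1.73, and that of the other 34 members was 0.53. This grouping was made after the values were seen and has no test. Over all 39 members Spearman's rho between GC content and SD was 0.12 and Pearson's r was 0.39, and since members share libraries these describe the set only. Spearman's rho between the mean level and the SD was -0.54, and the parts of GC content and of level in the spread were not tested. With a GC offset per library, the STZ-macrophage against control-macrophage log2 fold changes were 1.87 for Vars, 2.17 for Aars2 and 2.24 for Vars2, against 2.92, 2.93 and 3.10 without it, and none was called.

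**Figure D5:**
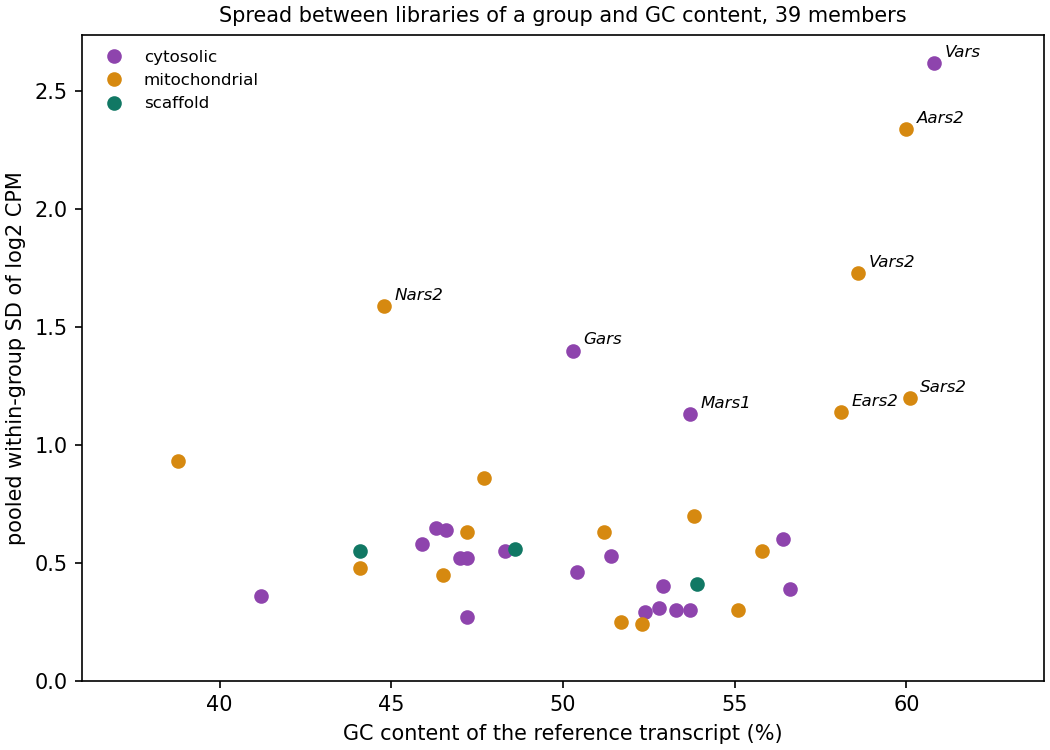
Pooled within-group standard deviation of log2 CPM against the GC content of the reference transcript for the 39 members, coloured by class and named where the SD is above 1 or the GC content at least 58%. The 5 members at or above 58% GC have SDs of 1.14 to 2.62, whereas Nars2, Gars and Mars1 reach 1.13 to 1.59 at lower GC.

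Promoters were searched for the element of the amino acid response, since several cytosolic synthetase genes are known targets of ATF4. The windows run from 250 bases before to 50 bases after the start of RefSeq transcripts (GRCm38.p6). A window was found for 30 of the 39 members. The motif TGATGNAA, the core of the element that C/EBP and ATF4 dimers bind, was searched on both strands. It was present in 5 of 30 members (16.7%) and in 4.51% of all 27025 genes with a window. The E-box CACGTG, its own reverse complement, was present in 5 of 30 members (Aars, Ears2, Farsb, Iars and Tars; 16.7%) and in 8.09% of all genes. All 5 members with TGATGNAA are cytosolic and are printed here 5′ to 3′ on the strand of the gene, with either motif in capitals. In all but Yars the TGATGNAA matches are on the strand opposite to the one printed.
Aars (chr8:111033592-111033891, plus strand): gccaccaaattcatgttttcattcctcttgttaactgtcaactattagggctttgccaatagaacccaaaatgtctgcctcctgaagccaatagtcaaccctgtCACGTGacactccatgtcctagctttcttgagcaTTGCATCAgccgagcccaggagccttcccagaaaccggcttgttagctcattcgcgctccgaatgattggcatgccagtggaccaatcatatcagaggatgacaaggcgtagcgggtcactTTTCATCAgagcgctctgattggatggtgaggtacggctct
Tars (chr15:11399609-11399908, minus strand): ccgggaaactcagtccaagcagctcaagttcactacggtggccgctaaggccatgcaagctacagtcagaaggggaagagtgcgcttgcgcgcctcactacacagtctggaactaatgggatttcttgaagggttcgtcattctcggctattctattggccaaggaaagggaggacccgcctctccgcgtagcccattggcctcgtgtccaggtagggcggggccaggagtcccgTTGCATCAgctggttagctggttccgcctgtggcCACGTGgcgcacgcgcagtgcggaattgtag
Yars (chr4:129189653-129189952, plus strand): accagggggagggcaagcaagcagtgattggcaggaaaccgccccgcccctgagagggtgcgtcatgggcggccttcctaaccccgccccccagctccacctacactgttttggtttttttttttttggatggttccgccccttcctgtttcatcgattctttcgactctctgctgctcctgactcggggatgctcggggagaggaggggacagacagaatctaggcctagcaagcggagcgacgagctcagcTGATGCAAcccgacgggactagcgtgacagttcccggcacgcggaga
Gars (chr6:55037751-55038050, plus strand): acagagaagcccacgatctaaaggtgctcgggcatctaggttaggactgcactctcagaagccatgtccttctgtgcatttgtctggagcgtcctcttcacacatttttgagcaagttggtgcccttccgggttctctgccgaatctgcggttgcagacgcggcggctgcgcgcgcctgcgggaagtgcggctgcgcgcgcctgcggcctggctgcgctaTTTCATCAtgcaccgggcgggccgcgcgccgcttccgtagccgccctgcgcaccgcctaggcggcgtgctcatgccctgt
Iars (chr13:49681880-49682179, plus strand): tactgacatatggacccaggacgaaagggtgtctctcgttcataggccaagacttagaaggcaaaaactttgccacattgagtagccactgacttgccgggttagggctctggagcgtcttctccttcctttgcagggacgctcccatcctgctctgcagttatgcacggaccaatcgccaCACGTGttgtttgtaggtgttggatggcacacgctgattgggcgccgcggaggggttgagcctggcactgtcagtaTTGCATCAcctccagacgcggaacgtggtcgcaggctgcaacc
These letters describe the windows and are no evidence of binding. Of the 5 genes, Aars, Tars and Yars rose with STZ macrophages, and Aars and Yars with control macrophages. Gars is described above, and Iars, the isoleucine enzyme, was at 165, 381, 331, 309 and 169 CPM with STZ macrophages, 204, 146, 343 and 205 CPM with control macrophages and 214, 81.5, 141 and 153 CPM in cells alone, with log2 fold changes against them of 0.21 with STZ macrophages (SE 0.27) and 0.31 with control macrophages (SE 0.25) that were not called. Kars, Dars, Eprs and Aimp2, which rose in both comparisons, had a window with no match.

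Other genes around the family were followed as lists. Of 25 tested genes of the amino acid response, 15 rose and 2 fell with STZ macrophages and 12 rose and 2 fell with control macrophages, against cells alone. For this and the following lists, 20.8% of all genes rose and 22.3% fell with STZ macrophages, and 23.1% rose and 22.0% fell with control macrophages. None of the 25 was called between the co-cultures by edgeR. DESeq2 called 4 of them higher with STZ macrophages, where it called 3.38% of all genes higher. Asns, the asparagine synthetase that ATF4 induces, was at 60.4 ± 9.49 CPM with STZ macrophages and 28.6 ± 10.8 CPM with control macrophages and had no count in any library of cells alone, where 3 counts would be 0.0671 to 0.133 CPM. Its log2 fold change between the co-cultures was 0.91 (SE 0.23, adjusted p = 0.131). The stress-induced genes Sesn2 (2.07, SE 0.63, adjusted p = 0.148) and Chac1 (2.66, SE 0.81, adjusted p = 0.154) had the next smallest p of the list there. The serine synthesis enzymes Phgdh and Psat1 were at 121 ± 35.7 and 387 ± 119 CPM with STZ macrophages, 136 ± 8.85 and 425 ± 168 CPM with control macrophages and 15.2 ± 0.754 and 12.8 ± 7.53 CPM in cells alone, and rose in both comparisons.

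Of the 6 cytosolic elongation factors, 2 rose with STZ macrophages (Eif5a and Eef2) and 6 with control macrophages. Eef2, which moves the ribosome along the message, was at 1421 ± 250 CPM with STZ macrophages, 1255 ± 124 CPM with control macrophages and 785 ± 179 CPM in cells alone. Among 23 tested genes of transfer RNA maturation and export, 3 rose and 1 fell with STZ macrophages, and 8 rose and none fell with control macrophages by edgeR. The 3 that rose with STZ macrophages are a smaller share than that of all genes. Pop1, a subunit of RNase P, which trims the 5′ end of transfer RNA precursors, was at 38.1 ± 14.5 CPM with STZ macrophages, 31.3 ± 11.3 CPM with control macrophages and 3.28 ± 2.05 CPM in cells alone. Its log2 fold changes were 2.82 with STZ macrophages (SE 0.40, adjusted p = 1.20e-04) and 2.94 with control macrophages (SE 0.38, adjusted p = 5.31e-05). Mettl1, which methylates transfer RNAs, stood at 17.5 ± 5.92 CPM with STZ macrophages, 10.9 ± 0.836 CPM with control macrophages and 2.71 ± 1.52 CPM in cells alone and rose in both comparisons.

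Of 6 tested editing enzymes and deacylases, which remove wrongly loaded amino acids or release stalled peptides, 3 rose in each co-culture, and Prorsd1 fell with STZ macrophages (-1.12, SE 0.26, adjusted p = 0.00401). Aarsd1, which clears mischarged alanine transfer RNA, was at 78.0 ± 23.1 CPM with STZ macrophages, 81.1 ± 13.4 CPM with control macrophages and 31.2 ± 7.42 CPM in cells alone. Among 10 mitochondrial charging companions and translation factors, 2 rose (Tsfm and Gfm1) and 1 fell (Mtif3) with STZ macrophages, and 1 rose (Gatb) and 1 fell (Mtif3) with control macrophages. Gatb, a subunit of the amidating enzyme that replaces a mitochondrial glutaminyl-tRNA synthetase, was at 27.8 ± 8.93 CPM with STZ macrophages, 30.8 ± 8.68 CPM with control macrophages and 11.4 ± 4.37 CPM in cells alone. Of 6 selenocysteine charging genes, Sephs1 rose in both comparisons (182 ± 35.4 CPM with STZ macrophages, 217 ± 29.0 CPM with control macrophages and 50.4 ± 16.9 CPM in cells alone) and Pstk fell with control macrophages (-1.17, SE 0.44, adjusted p = 0.0440). Of 8 tested eIF2 kinases and phosphatase subunits, 2 rose and none fell with STZ macrophages by edgeR, and 2 rose and 3 fell with control macrophages. Eif2ak2, an interferon-induced kinase of that list, was at 142 ± 23.3 CPM with STZ macrophages, 204 ± 53.1 CPM with control macrophages and 5.37 ± 4.29 CPM in cells alone. Eif2ak4, which senses uncharged transfer RNA, was at 5.39 ± 5.52 CPM with STZ macrophages, 1.81 ± 0.692 CPM with control macrophages and 13.9 ± 13.5 CPM in cells alone, and fell with control macrophages (-2.34, SE 0.74, adjusted p = 0.0216). Gcn1, which works with Eif2ak4, was at 2.13 on the log2 scale between the co-cultures (SE 0.44, adjusted p = 0.0702). No gene of these lists was called between the co-cultures by edgeR, and DESeq2 called 9 (4 of the amino acid response, 2 of the eIF2 list, 1 mitochondrial factor and 2 of transfer RNA maturation). DESeq2 called 5.10% of all genes there, 3.38% higher and 1.72% lower.

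The genes are spread over the genome (GRCm38, GENCODE mouse annotation). Aars spans chr8:111033144-111057664 on the plus strand and Kars chr8:111993443-112011323 on the minus strand of the same chromosome. Wars lies at chr12:108860030-108894174 (minus), Yars at chr4:129189760-129219607 (plus), Lars2 at chr9:123366927-123462666 (plus), Vars at chr17:35000987-35016322 (plus) and Vars2 at chr17:35655634-35667592 (minus). Several members share transcript sequence with other genes of the annotation. Aars shares 23.1% of its transcript with Exosc6 on the same strand, and Iars shares 1656 bases at 96% identity with the pseudogene Gm4849. Farsb (12.3%, Sgpp2), Cars2 (11.4%, Naxd), Hars (9.80%, Hars2), Nars2 (7.52%), Hars2 (5.85%, Hars) and Vars2 (2.94%) share sequence with a gene on the opposite strand. The split of reads there is uncertain, since the kit does not keep the strand. Only annotated transcripts were compared, and repeated sequence outside them was not searched for any member, Lars2 included.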

How the data were processed

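Bulk RNA of sorted CD4+ T cells was sequenced in 13 libraries. Per the labels' protocols, 10 ng of RNA went into SMARTer Ultra Low libraries, a kit that does not keep the strand, read in pairs on a NovaSeq6000. The authors deposited estimated counts per gene, not normalized, of which 11.0% are not whole. They also deposited a table of log2 values for 12236 genes, with an adjustment that no source used here describes. Per the labels' protocols, reads were aligned to the Ensembl GRCm38 primary assembly, and the submitters' processing notes name DESeq2. No aligner, counter or annotation release is given in the sources used here.

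Estimated counts were rounded to whole numbers, filtered by edgeR's filterByExpr on the 3 groups and scaled by TMM. Library totals were 17312119 to 61267763 counts, so counting error is small except for the lowest members. Each comparison was fitted on all 13 libraries with group and batch day as terms (edgeR 4.0.16 quasi-likelihood test, R 4.3.3), with Benjamini-Hochberg adjustment across all 15781 genes and calls at an adjusted p under 0.05. The SE is the log2 fold change divided by the root of the F statistic. P-values measure the spread between libraries that the labels call biological replicates. The code of the fit was also run on simulated counts that held no batch effect, so that run says nothing on the part of batch.

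The members and lists were chosen with earlier results of these data known. Values per library are given for up to 6 cytosolic, 4 mitochondrial and all 3 scaffold members of smallest p in each comparison, and for Eprs, Wars, Wars2, Kars, Gars, Mars1 and Lars2 throughout. Genes of the other lists are named from the 3 of smallest p per list and comparison. Members outside this rule (Hars, Farsa, Iars, Ears2, Tars with control macrophages, and those that stood out in spread, range or a promoter match) were chosen after their values were seen. Transcript length, GC content and overlaps come from the GENCODE mouse annotation of GRCm38, and promoters from RefSeq.

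Same-numbered control-macrophage and cells-alone libraries deviated together in 4 of 4 pairs (r = 0.323 to 0.608). Only 2 of the 4 correlated best with their own number, and pairs of unlike number reached r = 0.717. Whether they are paired is therefore not known, and the main fit has no term for it. No label states a shared animal or day. Alternatives were DESeq2 1.42.0, RLE factors, library totals, no filter, no day term, the compared groups alone, the replicate block, a GC offset, the deposited log2 table with limma 3.58.1 and leaving out each library. The day term, its leave-one-out fits, the fit without STZ-macrophage replicates 2 and 4 and a block on 2 groups were added after the data were seen.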

Additional observations from a re-analysis of the deposited data

Results flagged for a closer look

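In 7 of 117 groups of libraries tested, the highest or lowest library lay far from the others of its group by Dixon's criterion, which chance meets in about 1 in 20 groups. STZ-macrophage replicate 1 was the highest of 5 for Iars2 (27.9 CPM, next 11.9) and for Mars2, the mitochondrial methionine enzyme (8.63 CPM, next 3.33). Control-macrophage replicate 3, the only one of its group on batch day 2, was the lowest of 4 for Farsa (94.9 CPM, next 153) and the highest for Gars (25.2 CPM, next 13.8) and Nars2, the mitochondrial asparagine enzyme (5.18 CPM, next 2.94). Cells-alone replicate 2, the library of lowest depth, was the highest of 4 for Vars (27.3 CPM, next 1.35) and the lowest for Wars (68.4 CPM, next 118).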

How the results depend on the processing

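Between the co-cultures, DESeq2 called 1 member higher and 650 genes in all, and the authors' adjusted log2 values 1 member higher and 88 genes, against 0 members and 51 genes. The compared groups alone gave 4 higher, 2 lower and 2698 genes. No day term gave 19 genes, and 0 genes were called with the replicate block, with the block and a GC offset, or without STZ-macrophage replicates 2 and 4. Leaving out 1 library gave 0 to 1 members higher, 0 lower and 0 to 582 genes.

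With control macrophages against cells alone, 4 members were lower with library totals or no day term, 1 with the compared groups alone or a block on these 2 groups (4607 genes called, against 7106), and 9 in the adjusted table. Library totals lost Eprs, Farsb, Qars, Rars2 and Eef1e1. Leave-one-out fits gave 12 to 16 higher and 1 to 4 lower, where 5745 to 7760 genes were called in either direction. With STZ macrophages against cells alone, 0 were lower with no filter, the compared groups alone or STZ-macrophage replicates 2 and 4 out, 3 with no day term and 2 in the adjusted table. Genes called in either direction in these fits were 6279, 5085, 5659, 7528 and 6871, in that order, against 6807. Leave-one-out fits gave 7 to 17 higher and 0 to 1 lower, where 5137 to 8043 genes were called in either direction. Same-numbered STZ-macrophage libraries did not all deviate together with control-macrophage libraries (r = -0.323 to 0.709) or cells alone (-0.611 to 0.624). The pairs that correlated best with their own number were 2 of 4 with control macrophages and 0 of 4 with cells alone. Whether these libraries are paired is not known. The replicate block left 4 higher and 0 lower (3476 genes, against 6807). It lost Cars, Dars, Eprs, Mars1, Tars, Wars, Lars2 and Tars2. With a GC offset added, 5 were higher and 0 lower (3617 genes). For control macrophages the block lost Qars, and the block on 2 groups also Cars2, Rars2 and Eef1e1.

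Library totals moved the median of all genes to 0.07, -0.45 and -0.17 (STZ against control macrophages, control macrophages against cells alone, STZ macrophages against cells alone), against -0.13, -0.13 and -0.05, and no filter moved the third to 0.32.

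Some members changed sign. Aimp2 between the co-cultures (-0.09) was 0.01 with RLE factors or DESeq2, 0.11 with library totals, 0.10 with no filter, 0.18 with no day term, 0.09 with the compared groups alone, 0.05 in the adjusted table, 0.08 without replicates 2 and 4, and -0.14 to 0.09 in leave-one-out fits. Eef1e1 (-0.19) was 0.02 with library totals, 0.01 with no filter, a GC offset or replicates 2 and 4 out, 0.25 with no day term, 0.09 with block and GC offset, and -0.24 to 0.08 in leave-one-out fits. Gars with STZ macrophages against cells alone (-0.15) was 0.05 with RLE factors or DESeq2, 0.20 with no filter or the compared groups alone, 1.33 with the block, 1.42 with block and GC offset, 4.90 in the adjusted table, 0.24 without replicates 2 and 4, and -0.61 to 1.66 in leave-one-out fits. With control macrophages (-0.60) it was 0.42 with the block, 0.39 with block and GC offset, 4.27 in the adjusted table, 0.26 with the block on 2 groups and -0.99 to 1.01 in leave-one-out fits. Lars2 with control macrophages (-0.18) was 0.11 with no day term, 0.09 with the block, 0.08 with block and GC offset, 1.16 in the adjusted table, 0.27 with the block on 2 groups and -0.43 to 0.27 in leave-one-out fits. In the adjusted table Aars (-0.50) and Mars1 (-1.84) with control macrophages, and Mars1 (-0.17), Lars2 (0.14) and Vars2 (-0.63) with STZ macrophages, also had the opposite sign. Mars1 and Lars2 with control macrophages, and Gars in both comparisons, were called there. The cause was not tested. Over all alternatives 1178 values of single genes kept direction and side of the threshold, 82 lost the call, 32 gained it and 48 changed sign. The lowest counts of Aars2, Vars and Nars2 in a library were 2, 6 and 7, where counting error is largest.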
